A study of Mus musculus with 40 samples.

Results

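The genes described here are 9 of the 55536 genes in the count tables, namely the transcription factor genes *Gata6*, *Gata4*, *Sox17*, *Sox7*, *Foxa2*, *Foxq1*, *Hnf4a* and *Hhex* and the receptor gene *Pdgfra*. They were chosen by name for their place in primitive endoderm, with earlier results of these data known. All 9 had reads and passed the filter on low counts in the main tests of genotype and treatment. mRNA was sequenced from mouse embryonic stem cells (mESCs) grown on gelatin in serum with LIF. Cells were WT, as 2 biological replicates, or lacked *Ccnc* (KO clones D1, G2, H5) or *Cdk8* (KO clones B9, C8, H4), all wild type for *Atm*, and each was given DMSO or 900 nM AZD6738, an inhibitor of the replication stress kinase ATR (ATRi), for 4 h. Each knockout clone was grown from a single cell edited with CRISPR and Cas9, so a clone stands for 1 line and not for a population of edited cells. The *Ccnc* KO libraries and the *Cdk8* KO libraries were sequenced in separate multiplexes, each together with the same 4 WT libraries. Comparisons were made within a multiplex, apart from that of the knockouts with each other. *Ccnc* encodes Cyclin C, the partner of the kinase CDK8 in the kinase module of the Mediator complex.

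Primitive endoderm is the extraembryonic layer that forms on the inner cell mass of the blastocyst and gives rise to the endoderm of the yolk sac. FGF signalling through ERK favours this fate over the epiblast, from which mESCs are derived, and GATA6 stands at the head of the network, with GATA4, SOX17 and SOX7 acting after it. FOXA2 and HNF4A belong to the later visceral endoderm, where HNF4A drives genes of absorption and transport, and PDGFRA is the receptor for PDGF ligands by which primitive endoderm cells are commonly recognised. Cultures of mESCs in serum and LIF are known to hold some cells that express genes of this fate.

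The 20 libraries held between 30899823 and 67274049 counted reads. The members with the fewest reads, *Hnf4a*, *Foxa2* and *Hhex*, had the largest standard errors of the difference between knockout and WT in each multiplex. Reads of *Ccnc* fell from between 39.5 and 45.2 counts per 1000000 reads of the scaled library size (CPM) in the WT libraries to between 4.25 and 7.37 CPM in the *Ccnc* KO libraries of the same multiplex. *Cdk8* reads lay between 52.3 and 64.5 CPM in *Cdk8* KO and between 71.2 and 78.6 CPM in the WT libraries of that multiplex, apart from WT replicate 2 with ATRi at 57.7 CPM. *Cdk8* mRNA was thus lowered modestly (log2 fold change -0.35, edgeR adjusted p = 0.0112), with most reads still present. WT replicate 2 with ATRi was left out of the tests, as the study did, and its values are given here. The reads of each WT library in the 2 multiplexes were compared for each member by exact binomial tests, and of 36 comparisons 3 had an unadjusted p under 0.05 and 1 passed an adjusted p of 0.05, namely *Foxa2* in WT replicate 2 with DMSO (43 reads with the *Ccnc* KO and 14 with the *Cdk8* KO libraries, adjusted p = 0.0454). *Foxq1* was higher in all 4 WT libraries of the *Cdk8* multiplex than in their *Ccnc* multiplex runs, and *Hnf4a* lower in all 4, on few reads. WT replicate 2 lay above WT replicate 1 for 8 of 9 members with DMSO and for 7 of 9 with ATRi in each multiplex.

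In GRCm38 *Gata4* (chr14:63198922-63271692, minus strand) and *Sox7* (chr14:63943673-63950732, plus strand) lie near each other on chromosome 14, *Foxa2* (chr2:148042877-148046969, minus) and *Hnf4a* (chr2:163506808-163572910, plus) share chromosome 2, and *Sox17* (chr1:4490931-4497354, minus), *Foxq1* (chr13:31556134-31560976, plus), *Hhex* (chr19:37434810-37440731, plus) and *Pdgfra* (chr5:75152292-75198215, plus) are alone on theirs. Reads were counted over exons and by strand, so the bases that the single exon of *Foxq1* shares with the opposite-strand gene *A530084C06Rik* do not add to it. The identifiers are ENSMUSG00000005836 (*Gata6*), ENSMUSG00000021944 (*Gata4*), ENSMUSG00000025902 (*Sox17*), ENSMUSG00000063060 (*Sox7*), ENSMUSG00000037025 (*Foxa2*), ENSMUSG00000038415 (*Foxq1*), ENSMUSG00000017950 (*Hnf4a*), ENSMUSG00000024986 (*Hhex*) and ENSMUSG00000029231 (*Pdgfra*). The only overlap on the same strand is that of *Pdgfra* with 30 bases of *Mir7025*.

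Upstream sequence from RefSeq (GRCm38.p6) was found for 4 members, and bases 250 to 51 before the start are printed 5′ to 3′ on the gene's strand, to set 3 members called in *Cdk8* KO cells (*Foxa2*, *Hnf4a* and *Pdgfra*) beside *Hhex*, which was not. Where RefSeq gives several starts, the window nearest to the annotated gene start was taken. Capitals mark matches, on either strand, to the word AGATAA and its variants AGATAG, likewise TGATAA and likewise TGATAG, for GATA factors, to ACAAT for SOX factors, to TGTTTAC and its variant TGTTTGC for FOX factors and to CAAAGTCCA for HNF4A.
Foxa2, chr2:148047020-148047219, minus strand: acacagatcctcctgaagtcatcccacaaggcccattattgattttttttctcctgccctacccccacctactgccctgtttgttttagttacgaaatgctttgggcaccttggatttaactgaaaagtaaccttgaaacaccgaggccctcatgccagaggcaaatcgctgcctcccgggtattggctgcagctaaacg
Hnf4a, chr2:163506607-163506806, plus strand: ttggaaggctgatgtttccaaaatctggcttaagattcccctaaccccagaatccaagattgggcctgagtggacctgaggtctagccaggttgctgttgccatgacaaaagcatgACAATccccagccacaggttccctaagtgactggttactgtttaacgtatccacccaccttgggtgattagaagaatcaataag
Pdgfra, chr5:75152001-75152200, plus strand: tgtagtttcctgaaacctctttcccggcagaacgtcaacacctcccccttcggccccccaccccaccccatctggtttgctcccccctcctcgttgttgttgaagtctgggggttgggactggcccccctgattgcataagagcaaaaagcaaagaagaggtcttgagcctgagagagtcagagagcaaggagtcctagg
Hhex, chr19:37434591-37434790, plus strand: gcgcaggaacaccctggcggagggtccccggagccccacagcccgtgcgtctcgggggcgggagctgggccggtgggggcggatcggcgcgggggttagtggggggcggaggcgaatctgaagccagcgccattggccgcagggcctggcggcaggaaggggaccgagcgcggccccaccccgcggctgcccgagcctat
The 4 windows hold 1 match, a SOX word on the plus strand at -134 to -130 from the start of *Hnf4a*. Among 32851 windows of the same length before RefSeq starts, 23.1% hold a GATA word, 23.7% a SOX word, 5.98% a FOX word and 0.295% the HNF4A word. G and C make up 77.0% of the *Hhex* window and 49.0%, 47.5% and 56.5% of those of *Foxa2*, *Hnf4a* and *Pdgfra*, against a median of 51.5% over all windows.

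All members were expressed at low levels. Per kilobase of exon, the median level over the 4 WT libraries of the *Ccnc* multiplex was highest for *Gata4* (0.836 CPM per kb), followed by *Gata6* (0.645), *Sox7* (0.365), *Pdgfra* (0.259), *Foxa2* (0.233), *Sox17* (0.197), *Foxq1* (0.182), *Hnf4a* (0.0554) and *Hhex* (0.0439). On the same scale *Pou5f1*, the mESC factor OCT4, stood at a median of 608 CPM per kb in these libraries. Each neighbouring pair in this order had overlapping ranges over the WT libraries, except *Foxq1* (0.0979 to 0.321 CPM per kb) and *Hnf4a* (0.0372 to 0.0669). In *Ccnc* KO libraries the order of the medians was *Gata4* (1.70 CPM per kb), *Sox7* (1.29), *Gata6* (1.26), *Foxq1* (0.769), *Sox17* (0.594), *Pdgfra* (0.421), *Foxa2* (0.401), *Hnf4a* (0.143) and *Hhex* (0.0371). In *Cdk8* KO libraries the medians fell in the same order, from 2.20 CPM per kb for *Gata4* over 1.88 for *Sox7* and 1.57 for *Gata6* to 0.193 for *Hnf4a* and 0.0359 for *Hhex*.

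Loss of Cyclin C or of CDK8 went with higher mRNA levels of most of these genes. In *Ccnc* KO cells 6 of 9 members were raised and in *Cdk8* KO cells 8 of 9, with a call at an adjusted p under 0.05 and a fold change above 2 in edgeR's quasi-likelihood test. This test takes the DMSO and ATRi libraries of a clone as separate, and with a replicate block for the paired libraries in limma, at an estimated correlation of 0.12 and 0.56, the counts were 6 and 4, and with the libraries of each clone summed 6 and 0. Over all genes tested, 1.62% were raised and 0.318% lowered by this rule on loss of *Ccnc*, and 0.908% and 0.144% on loss of *Cdk8*. The members had a median log2 fold change of 1.17 on loss of *Ccnc* and 1.83 on loss of *Cdk8*, beside medians of 0.0032 and 0.0086 over all genes tested. Every knockout library lay above every WT library for 7 of 9 members on loss of *Ccnc* and for 8 of 9 on loss of *Cdk8*, against 5.15% and 4.74% of all genes tested. *Hhex* was the exception in both knockouts, and *Foxa2* overlapped in the *Ccnc* multiplex. The members were chosen with earlier results of these data known, so their counts beside all genes are descriptive and no independent test. Since RNA came from whole cultures, more cells expressing these genes and more mRNA per cell cannot be told apart.

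**Figure D1:**
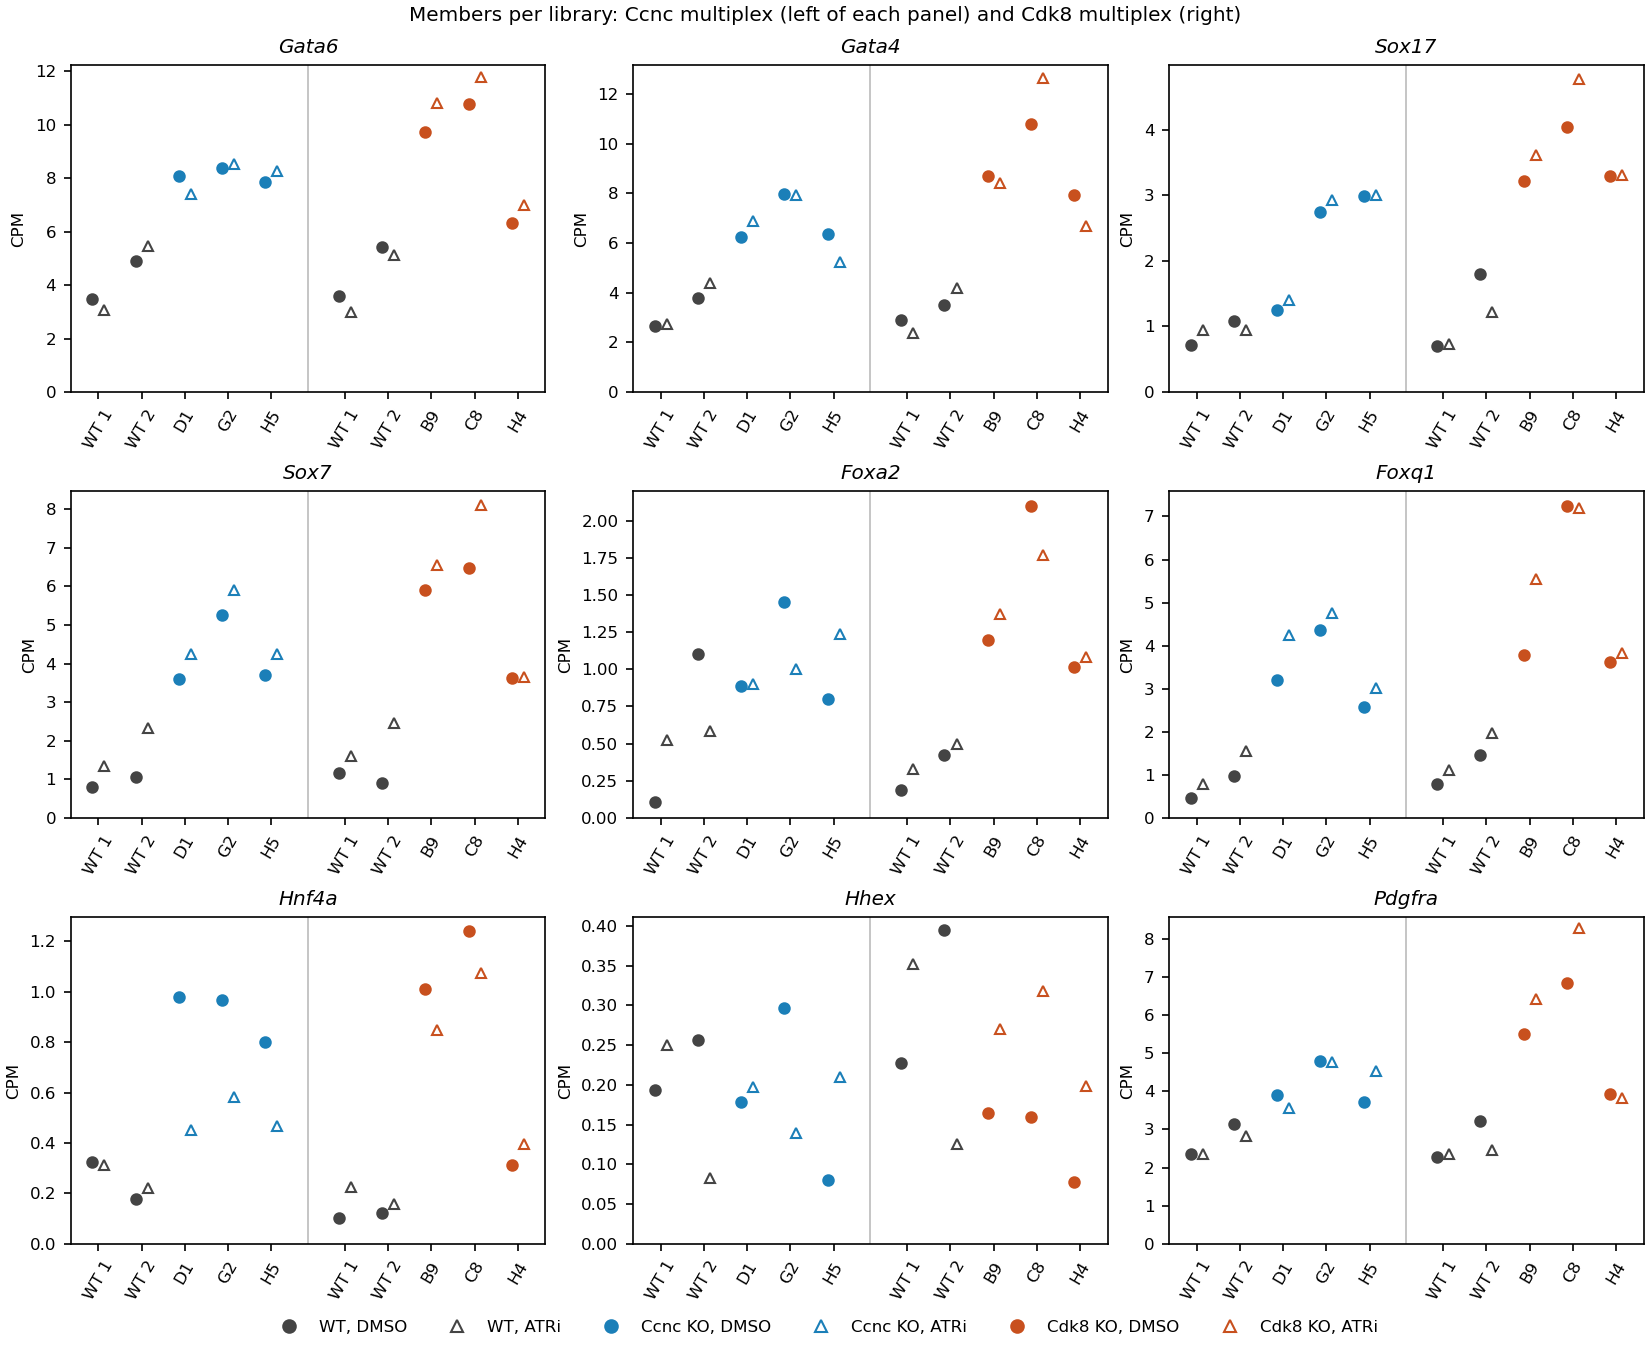
Level of each of the 9 genes in every library, in counts per 1000000 reads (CPM) on a linear axis that starts at 0, for WT replicates (grey), *Ccnc* KO clones (blue) and *Cdk8* KO clones (orange), with filled circles for DMSO and open triangles for ATRi. Knockout libraries lie above all WT libraries of their multiplex for every gene except *Hhex* in both multiplexes and *Foxa2* in the *Ccnc* multiplex.

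The GATA factors were expressed more highly in every knockout library than in every WT library. *Gata6*, which is required for primitive endoderm to form, was measured with DMSO at 3.47 and 4.92 CPM in WT replicates 1 and 2 and with ATRi at 3.09 and 5.46 CPM in the *Ccnc* multiplex, and the *Ccnc* KO libraries ran from 7.40 over a median of 8.18 to 8.53 CPM. The 3 clones lay closer to each other than the WT replicates did, and the difference had a log2 fold change of 1.12 ± 0.13 (SE), with an edgeR adjusted p of 9.34e-05. When WT replicate 2 with ATRi was put back into the fit, the estimate was 0.94 and *Gata6* no longer passed the fold threshold. In the *Cdk8* multiplex WT replicates 1 and 2 gave 3.61 and 5.41 CPM with DMSO and 3.02 and 5.13 CPM with ATRi for *Gata6*, against 6.31, 10.2 and 11.8 CPM as the lowest, median and highest *Cdk8* KO value. Clone H4 lay nearest to WT, and the log2 fold change was 1.25 ± 0.26 (SE) with an edgeR adjusted p of 0.0286, and a limma adjusted p of 0.0717 with the replicate block.

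*Gata4*, which is switched on after *Gata6* and binds the same DNA motif, showed the same arrangement. WT levels of *Gata4* in the *Ccnc* multiplex were 2.65 and 3.79 CPM (DMSO, replicates 1 and 2) and 2.73 and 4.41 CPM (ATRi), and *Ccnc* KO levels were 5.22 to 7.96 CPM with a median of 6.62 CPM. The margin was narrowest in clone H5 with ATRi and the edgeR adjusted p was 0.000328 for a log2 fold change of 1.17 ± 0.16 (SE). *Cdk8* KO libraries held 6.70 to 12.6 CPM of *Gata4* (median 8.58), and the WT libraries beside them 2.91 and 3.50 CPM with DMSO and 2.39 and 4.19 CPM with ATRi. Clone C8 was highest, and the log2 fold change of 1.68 ± 0.22 (SE) had an edgeR adjusted p of 0.00497.

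The SOX factors, HMG-box proteins of the SOXF group, rose in both knockouts. *Sox17*, which acts in primitive and definitive endoderm and in blood vessels, stood at 0.711 and 1.08 CPM in WT replicates 1 and 2 with DMSO and at 0.939 and 0.943 CPM with ATRi in the *Ccnc* multiplex. *Ccnc* KO libraries reached from 1.25 to 3.01 CPM, with a median of 2.84 CPM. Both libraries of clone D1 were just above WT and those of G2 and H5 well above it, for a log2 fold change of 1.41 ± 0.30 (SE) and an edgeR adjusted p of 0.00714. Beside WT values of 0.701 and 1.79 CPM (DMSO) and 0.729 and 1.22 CPM (ATRi), the *Cdk8* KO libraries had 3.21 to 4.78 CPM of *Sox17* (median 3.46). There the clones were more alike and all clear of WT, with a log2 fold change of 1.83 ± 0.31 (SE) and an edgeR adjusted p of 0.0139. Without WT replicate 1 this estimate was 0.95, with an edgeR adjusted p of 0.435.

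*Sox7*, whose expression continues in parietal endoderm, rose more than 4-fold in each knockout. In WT cells of the *Ccnc* multiplex it was read at 0.797 and 1.05 CPM with DMSO and 1.36 and 2.33 CPM with ATRi, replicate 2 with ATRi being the WT library nearest to the knockouts. *Sox7* values of 3.59, 4.25 and 5.91 CPM were the lowest, median and highest of *Ccnc* KO cells. The log2 fold change was 2.04 ± 0.20 (SE) with an edgeR adjusted p of 1.62e-05, the smallest p among the members. For *Cdk8* KO cells *Sox7* spread from 3.63 to 8.10 CPM around a median of 6.20 CPM, against WT levels of 1.16 and 0.912 CPM (DMSO) and 1.61 and 2.47 CPM (ATRi). H4 held the lowest knockout values, still above WT, and the log2 fold change was 2.18 ± 0.30 (SE) with an edgeR adjusted p of 0.00560.

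Of the forkhead genes, *Foxq1* was raised in both knockouts and *Foxa2* in *Cdk8* KO cells. *Foxq1*, less studied in this lineage, had the largest log2 fold change of the members in *Ccnc* KO cells, 2.28 ± 0.25 (SE), with an edgeR adjusted p of 4.82e-05. Its WT levels there were 0.474 and 0.974 CPM with DMSO and 0.793 and 1.55 CPM with ATRi, and its *Ccnc* KO levels 2.58 to 4.77 CPM (median 3.73). The groups were apart in both multiplexes. *Foxq1* in *Cdk8* KO cells lay between 3.63 and 7.25 CPM with a median of 4.69 CPM, WT replicates 1 and 2 holding 0.784 and 1.46 CPM with DMSO and 1.11 and 1.97 CPM with ATRi. The log2 fold change was 2.21 ± 0.33 (SE) (edgeR adjusted p = 0.00749), with C8 the highest clone.

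*Foxa2*, a forkhead factor of visceral and definitive endoderm, was the least even member in WT cells. Its reads in the *Ccnc* multiplex came to 0.108 and 1.10 CPM in replicates 1 and 2 with DMSO and 0.522 and 0.582 CPM with ATRi, and the *Ccnc* KO libraries, at 0.802 to 1.45 CPM (median 0.950), overlapped with replicate 2 with DMSO. That is the library in which *Foxa2* reads differed between the multiplexes, and the log2 fold change of 0.90 ± 0.43 (SE) was not called (edgeR adjusted p = 0.192). The estimate was -0.080 without WT replicate 1 (edgeR adjusted p = 0.946) and 1.75 without WT replicate 2 (edgeR adjusted p = 0.0213), so that the result in *Ccnc* KO cells rested on the WT replicate used. In *Cdk8* KO cells *Foxa2* was read at 1.02 to 2.098 CPM (median 1.28), and in the WT libraries of that multiplex at 0.186 and 0.425 CPM with DMSO and 0.327 and 0.501 CPM with ATRi. These did not overlap, and the log2 fold change was 2.21 ± 0.36 (SE) with an edgeR adjusted p of 0.0102, and a limma adjusted p of 0.0596 with the replicate block.

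*Hnf4a*, the nuclear receptor of visceral endoderm, rested on 4 to 15 reads in each WT library and 12 to 71 in each knockout library. With DMSO and ATRi it stood at 0.323 and 0.179 CPM and at 0.313 and 0.222 CPM in the WT replicates of the *Ccnc* multiplex, and at 0.450 to 0.979 CPM (median 0.691) in *Ccnc* KO cells. The groups were separate, and the log2 fold change was 1.39 ± 0.31 (SE) with an edgeR adjusted p of 0.00859, or 2.33 without WT replicate 1. *Cdk8* KO cells had 0.313 to 1.24 CPM of *Hnf4a* (median 0.930) beside WT values of 0.103 and 0.122 CPM with DMSO and 0.226 and 0.156 CPM with ATRi. H4 was close to WT while B9 and C8 lay far above, and the estimate of 2.42 ± 0.56 (SE) was both the largest and the least precise of the called members (edgeR adjusted p = 0.0406, and limma adjusted p = 0.201 with the replicate block).

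*Hhex*, a homeobox gene of anterior visceral endoderm and of the liver bud, was the one member whose estimate was not above 0. It had 3 to 21 reads in any library. WT replicates 1 and 2 of the *Ccnc* multiplex had 0.194 and 0.256 CPM with DMSO and 0.250 and 0.0832 CPM with ATRi, within which *Ccnc* KO values of 0.0802 to 0.296 CPM (median 0.187) overlapped, and the *Cdk8* KO values of 0.0783 to 0.317 CPM (median 0.182) overlapped with WT values of 0.227 and 0.395 CPM (DMSO) and 0.352 and 0.125 CPM (ATRi). The groups could not be separated by level in either multiplex. The log2 fold changes were -0.38 ± 0.43 (SE) and -0.82 ± 0.37 (SE), with edgeR adjusted p-values of 0.620 and 0.234. Their 95% confidence intervals, -1.28 to 0.53 and -1.64 to -0.0016, do not reach a 2-fold rise, and both allow a fall of more than 2-fold. In *Cdk8* KO cells the interval ended just below 0, and the adjusted p did not pass.

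*Pdgfra*, the only receptor among the members, had the smallest rise of those whose groups did not overlap. WT cells of the *Ccnc* multiplex held 2.35 and 3.15 CPM with DMSO and 2.36 and 2.83 CPM with ATRi, and *Ccnc* KO cells 3.57 to 4.79 CPM with a median of 4.22 CPM. The log2 fold change of 0.70 ± 0.15 (SE) passed the adjusted p (edgeR adjusted p = 0.00768), at which 7.01% of all genes were higher and 5.28% lower (2.28% and 2.03% in *Cdk8* KO cells), but not the fold threshold. Next to WT values of 2.27 and 3.22 CPM (DMSO) and 2.36 and 2.47 CPM (ATRi), *Cdk8* KO libraries gave 3.81 to 8.27 CPM (median 5.95). H4 lay nearest to WT and C8 farthest from it, and the log2 fold change of 1.14 ± 0.28 (SE) was called with an edgeR adjusted p of 0.0490, close to the threshold, and a limma adjusted p of 0.140 with the replicate block.

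**Figure D2:**
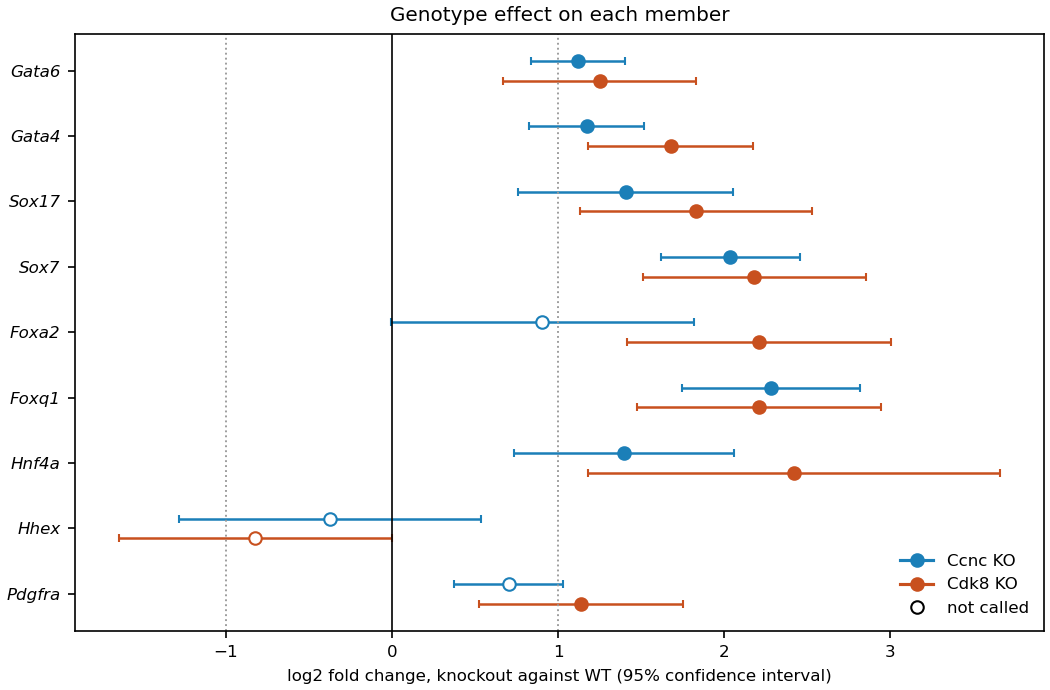
Log2 fold change of each gene in *Ccnc* KO (blue) and *Cdk8* KO (orange) cells against WT, with the 95% confidence interval from edgeR as bars. Filled points were called, open points were not, and dotted lines mark a 2-fold change. *Sox7* and *Foxq1* exceed a log2 fold change of 2 in both knockouts, and *Hhex* lies below 0 in both.

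The calls depended on which lines and libraries entered the fit. In *Ccnc* KO cells 6 members passed when the DMSO and ATRi libraries of each clone were summed. With a replicate block as a random effect for the paired libraries 6 passed as well. Without WT replicate 1 a single WT library remains. *Gata6* (0.72), *Gata4* (0.85), *Pdgfra* (0.39) and *Foxa2* (-0.080) were then under the fold threshold. *Sox17*, *Sox7*, *Foxq1* and *Hnf4a* had log2 fold changes of 1.13 to 2.33 in that fit. With DMSO alone 4 passed, since *Gata6* was under the fold threshold (0.97) and *Sox17* had an edgeR adjusted p of 0.0735. Of all genes, 1.55% were called with summed libraries, 1.58% with the replicate block and 1% with DMSO alone. In *Cdk8* KO cells the counts moved further. There, 4 members passed without clone C8, 4 with the replicate block (*Gata4*, *Sox17*, *Sox7* and *Foxq1*), and 0 when libraries were summed per clone, with DMSO alone, or without WT replicate 1, where 3, 4 and 1 genes passed in all and *Hhex* was not tested with DMSO alone. Of all genes, 0.459% were called without clone C8 and 0.353% with the replicate block. With summed libraries and with DMSO alone, 8 and 8 members had an unadjusted p under 0.05 in edgeR. So did 2530 of 19123 and 2009 of 16904 genes tested. In these fits and without WT replicate 1, the 8 members other than *Hhex* stayed higher in *Cdk8* KO cells. Their log2 fold changes were 1.10 to 2.46, 0.98 to 2.90 and 0.71 to 2.77 in that order.

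Whether a member changed more in one knockout than in the other was tested across both multiplexes, with the WT libraries carrying the term for the multiplex. None of the 9 members differed between *Cdk8* KO and *Ccnc* KO cells at an adjusted p under 0.05 in edgeR, where 0.00545% of all genes were higher in *Cdk8* KO cells, and *Foxa2* alone among the members had an unadjusted p under 0.05, as 2.85% of all genes did. The difference was largest for *Foxa2*, at 1.32 on the log2 scale (95% confidence interval 0.00161 to 2.64, edgeR adjusted p = 0.998), followed by *Hnf4a* at 1.10 (-0.30 to 2.50). For *Gata6* it was 0.16 (-0.44 to 0.75) and for *Sox7* 0.14 (-0.61 to 0.90), intervals that leave room for a difference in either direction. Because both multiplexes hold the same WT cells, the results for the knockouts are not independent of each other. In this test each WT library enters once per multiplex, and the DMSO and ATRi libraries of a clone enter as separate. Its intervals and p-values take them as independent, which they are not.

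Within a genotype the clones differed. Clone C8 had the highest mean level of all 9 members among the *Cdk8* KO clones and H4 the lowest of all 9. Over the members the median log2 fold against the mean of the WT replicates was 1.93 in C8, 1.48 in B9 and 1.31 in H4. By the F test of edgeR, 8 of the 8 members tested differed among the *Cdk8* KO clones, in a comparison in which 32.5% of all genes did. *Hnf4a* had the widest gap, at 1.16 CPM in C8 against 0.355 CPM in H4 in the mean of their libraries (edgeR adjusted p = 0.00239), and *Sox17* the narrowest, at 4.41 against 3.30 CPM (edgeR adjusted p = 0.0447). The other 6 lay 1.60- to 2.00-fold apart. Among the *Ccnc* KO clones the medians were closer, at 0.92 in D1, 1.30 in G2 and 0.97 in H5, and G2 was highest for 8 of 9 members. *Sox17* was the single member of 8 tested that differed there, at 1.33 CPM in D1 against 3.00 CPM in H5 (edgeR adjusted p = 0.0283, with 0.793% of all genes called). *Hhex* was not tested among clones. The 2 libraries of a clone come from the same line and differ in treatment, so this test has no repeat of a clone under the same condition.

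The other genes of the pathway were described by lists. Of 13 genes of the upstream signals, FGF4 and its receptors, ERK feedback genes and PDGF ligands, none was called in either direction in either knockout by edgeR with the fold threshold, while by the adjusted p-value alone *Dusp6* was higher and *Fgfr1* and *Spry4* were lower in *Ccnc* KO cells, each by about 0.25, and 0 passed in *Cdk8* KO cells. Their median log2 fold changes were 0.0088 and -0.078. *Pdgfb*, a ligand of PDGF receptors, had the largest mean change (0.37 and 0.97) and *Spry4*, a feedback inhibitor of ERK signalling, the lowest (-0.25 and -0.32). *Pdgfa*, the main ligand of PDGFRA in the blastocyst, stood between 37.5 and 44.3 CPM in *Ccnc* KO and between 38.8 and 45.6 CPM in WT libraries of the same multiplex, and between 31.7 and 44.4 against 38.6 and 47.3 CPM in the *Cdk8* multiplex.

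Paralogs of the members mostly stayed uncalled. In *Ccnc* KO cells 0 of 8 tested paralogs were called, and in *Cdk8* KO cells 1 of 9, *Gata3*, a GATA factor of trophectoderm (log2 fold change 1.83, edgeR adjusted p = 0.0373, and 0.87 with 0.125 in *Ccnc* KO cells). *Gata2* had the lowest mean, at -0.29 and, past the adjusted p-value but not the fold threshold, -0.61. *Gata1*, *Sox18*, *Foxa1*, *Foxa3*, *Pdgfrb* and *Kit* lay between -0.46 and 0.28 in both comparisons, and *Csf1r*, tested in the *Cdk8* multiplex, had 2.24 without a call. *Gata5* and *Hnf4g* did not pass the filter, and *Foxq2* is not in the annotation.

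Many genes downstream in extraembryonic endoderm were raised as well. Of 22 listed genes, 18 were tested in the *Ccnc* multiplex and 9 were raised, and 19 were tested in the *Cdk8* multiplex and 10 were raised. None was lowered past the fold threshold, and the medians were 1.41 and 1.16 on the log2 scale. *Dab2*, an endocytic adaptor of extraembryonic endoderm and a classical GATA6 target, had the largest mean change (2.79 in *Ccnc* KO, edgeR adjusted p = 2.90e-06, and 3.44 in *Cdk8* KO cells, 0.00252). *Cubn* and *Amn*, which form the cubilin receptor of visceral endoderm, were raised in both, *Cubn* by 2.597 and 3.51 and *Amn* by 1.69 and 1.92. The basement membrane collagens *Col4a1* (1.41 and 2.32) and *Col4a2* (1.88 and 2.70), *Cited1* (2.77 and 3.33), *Stra6* (2.31 and 1.95) and the Wnt inhibitor *Dkk1* (1.74 and 2.40) were also raised in both. *Lrp2*, the partner of cubilin, was raised past the fold threshold in *Cdk8* KO cells alone (1.12, against 0.33), and the test between the knockouts did not call it (0.76, edgeR adjusted p = 0.998). *Nid1*, another basement membrane gene, had the lowest mean change (-0.24 and -0.11). In *Ccnc* KO cells it was lower by the adjusted p-value alone (edgeR adjusted p = 0.0185). The laminin genes *Lama1*, *Lamb1* and *Lamc1* changed there by 0.17, 0.38 and -0.23, and *Fst* by -0.12, without a call. *Ttr*, *Afp* and *Cer1*, genes of differentiated or anterior visceral endoderm, did not pass the filter in either multiplex. Without WT replicate 1 the counts raised were 5 and 0, and with summed libraries 9 and 2.

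**Figure D3:**
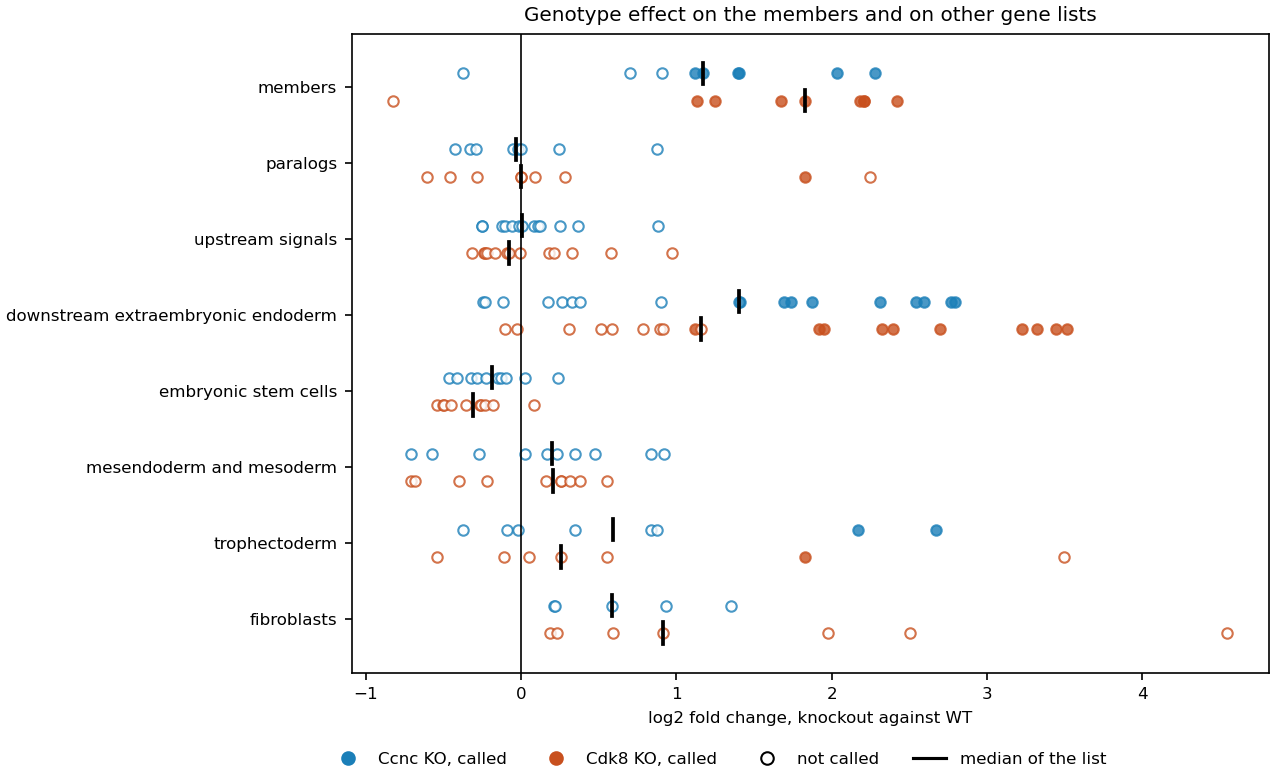
Log2 fold change against WT of the members and of 7 other gene lists in *Ccnc* KO (blue) and *Cdk8* KO (orange) cells, with 1 point per tested gene, filled where called, and a vertical bar at the median of the list. The members and the downstream genes have medians above 1, and the other lists have medians between -0.31 and 0.91.

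Markers of other cell types were read beside these changes. mESC markers remained high, with the summed level of 10 genes between 4396 and 4981 CPM in *Ccnc* KO and between 5030 and 5355 CPM in WT libraries, and between 3597 and 4763 against 4919 and 5254 CPM in the *Cdk8* multiplex. None of the 10 was called with the fold threshold, 4 and 2 were lower by adjusted p-value alone in edgeR, and the means ranged from *Klf4* (-0.41 and -0.54) to *Dppa5a* (0.24 and 0.086). Of 10 genes of primitive streak, mesendoderm and mesoderm, which share *Sox17*, *Foxa2*, *Hhex*, *Gata4*, *Gata6* and *Pdgfra*, 0 were called in either knockout, and *Eomes* passed the adjusted p-value alone in *Ccnc* KO cells (edgeR adjusted p = 0.00389). Their sum lay between 11.3 and 16.9 CPM in every library, with medians of 15.0 CPM in *Ccnc* KO against 12.6 in WT and 14.6 CPM in *Cdk8* KO against 13.0 in WT libraries. *Eomes* was highest (0.84 and 0.56) and *Tbx6* lowest (-0.58 and -0.71) of these. Each of the 10 had more than 3 reads in at least 1 library, and their part in the members' values was not tested.

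Some trophectoderm and fibroblast genes were highest in clone H4, where the members were lowest among the *Cdk8* KO clones. Of 8 trophectoderm genes, 2 were raised in *Ccnc* KO cells (*Krt7*, 2.17, and *Elf5*, 2.67) and 1 of 7 tested in *Cdk8* KO cells (*Gata3*). *Krt7*, a keratin, reached 9.39 to 9.76 CPM in H4 against 0.700 to 1.88 CPM in B9 and C8 and 0.276 to 0.908 CPM in WT, without a call for the genotype (3.50). *Tfap2a* had the lowest mean of the list (-0.37 and -0.54). None of the fibroblast genes, which share *Pdgfra*, was called (5 and 7 tested of 9), and the mean change was largest for *Col1a2* (1.35 and 2.51) and lowest for *Fbln2* (0.21 and 0.18). *Col1a1* stood at 14.3 to 16.8 CPM in H4 against 2.04 to 4.06 CPM in B9 and C8, whereas *Pdgfra* was lowest in H4. Among the *Ccnc* KO clones both genes were highest in H5. There *Krt7* stood at 2.54 to 3.05 CPM against 0.726 to 1.74 CPM in D1 and G2. *Col1a1* stood at 5.55 to 6.53 CPM in H5 against 2.14 to 2.79 CPM in D1 and G2. H5 was the lowest clone for 4 members and the highest for 1, *Sox17*. The fibroblast sum lay between 26.5 and 44.5 CPM in *Cdk8* KO and between 19.8 and 29.4 CPM in WT libraries of that multiplex, and between 24.4 and 34.2 against 23.0 and 26.8 CPM in the *Ccnc* multiplex. *Lum* and *Postn* had at most 3 reads in each library of the *Ccnc* multiplex, and the part of such cells in the *Pdgfra* values was not tested.

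The likeness of the members' patterns was described over WT and knockout libraries together, so that it contains the genotype difference given above. Over the 9 libraries of a multiplex that entered the tests, the Pearson correlation of a member's centred log2 CPM with the mean of the other members was between 0.68 and 0.98 for 8 members and -0.26 and -0.34 for *Hhex*. *Hnf4a* was the lowest of the 8 in the *Ccnc* multiplex (0.68). Among 13351 genes with at least 1 CPM on average that were tested in both multiplexes, the 5 others most like the mean of the members were *Cubn*, *Sparc*, *Nostrin*, *Dab2* and *Dkk1*, with the lower of their correlations in the multiplexes at 0.97, 0.97, 0.97, 0.96 and 0.96. *Foxq1* had the highest value (0.98) of the members that reached 1 CPM on average, but for a member the mean includes that member itself. *Foxa2*, *Hnf4a* and *Hhex* did not reach this level and were not ranked. These correlations describe libraries that share clones and the WT cells.

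No member was called for a change with ATRi after 4 h. In edgeR's test beside genotype, 0 of 9 members passed an adjusted p of 0.05 in either multiplex, where 0.366% of genes were higher and 0.743% lower beside *Ccnc* KO and 0.0374% and 0.0481% beside *Cdk8* KO cells. At an unadjusted p under 0.05 there were 1 and 0 members, with 16.2% and 11.5% of all genes, and DESeq2 also called 0. With the replicate block for the paired libraries 3 and 2 members had an unadjusted p under 0.05 in edgeR. So did 3452 of 18577 and 4903 of 18721 genes tested. Again 0 members passed the adjustment in that fit, which 2.43% and 11.3% of all genes passed. The members' median log2 change was -0.025 and 0.071 in the respective multiplexes. *Hnf4a* was the member with an unadjusted p under 0.05, at -0.60 ± 0.28 (SE) with an edgeR adjusted p of 0.303. Its levels were lower with ATRi in each of 3 *Ccnc* KO clones. They went from 0.979 to 0.450 CPM in D1, from 0.969 to 0.581 CPM in G2 and from 0.802 to 0.466 CPM in H5. In the WT cells of that multiplex *Hnf4a* was lower in replicate 1 and higher in replicate 2, whose ATRi library was left out of the tests. In the *Cdk8* multiplex *Hnf4a* was lower with ATRi in 2 clones and higher in H4.

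*Sox7* was higher with ATRi in every WT replicate and clone of both multiplexes, without a call. The log2 change over the multiplex was 0.28 in the *Ccnc* (edgeR adjusted p = 0.428) and 0.31 in the *Cdk8* multiplex (edgeR adjusted p = 0.713). WT replicate 1 rose by 0.77 in the *Ccnc* and 0.48 in the *Cdk8* multiplex, and the *Cdk8* KO clones by 0.013 to 0.32. WT replicate 2 rose by 1.15 and 1.44, but its ATRi library was left out of the tests. Both multiplexes hold the same WT libraries, so their WT pairs are not independent. *Hhex* was higher with ATRi in all 3 *Cdk8* KO clones on 3 to 21 reads per library, with a log2 change of 0.69 over the multiplex and an edgeR adjusted p of 0.508. What could have been missed differed between members. The 95% confidence interval for *Gata6* ran from -0.38 to 0.13 beside *Ccnc* KO and from -0.57 to 0.47 beside *Cdk8* KO cells. It was wider for *Hnf4a* (-1.18 to -0.0081 and -0.91 to 1.05) and *Hhex* (-0.81 to 0.96 and -0.10 to 1.48). These leave room for a change of more than 2-fold in *Hnf4a* in both multiplexes and in *Hhex* in the *Cdk8* multiplex.

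**Figure D4:**
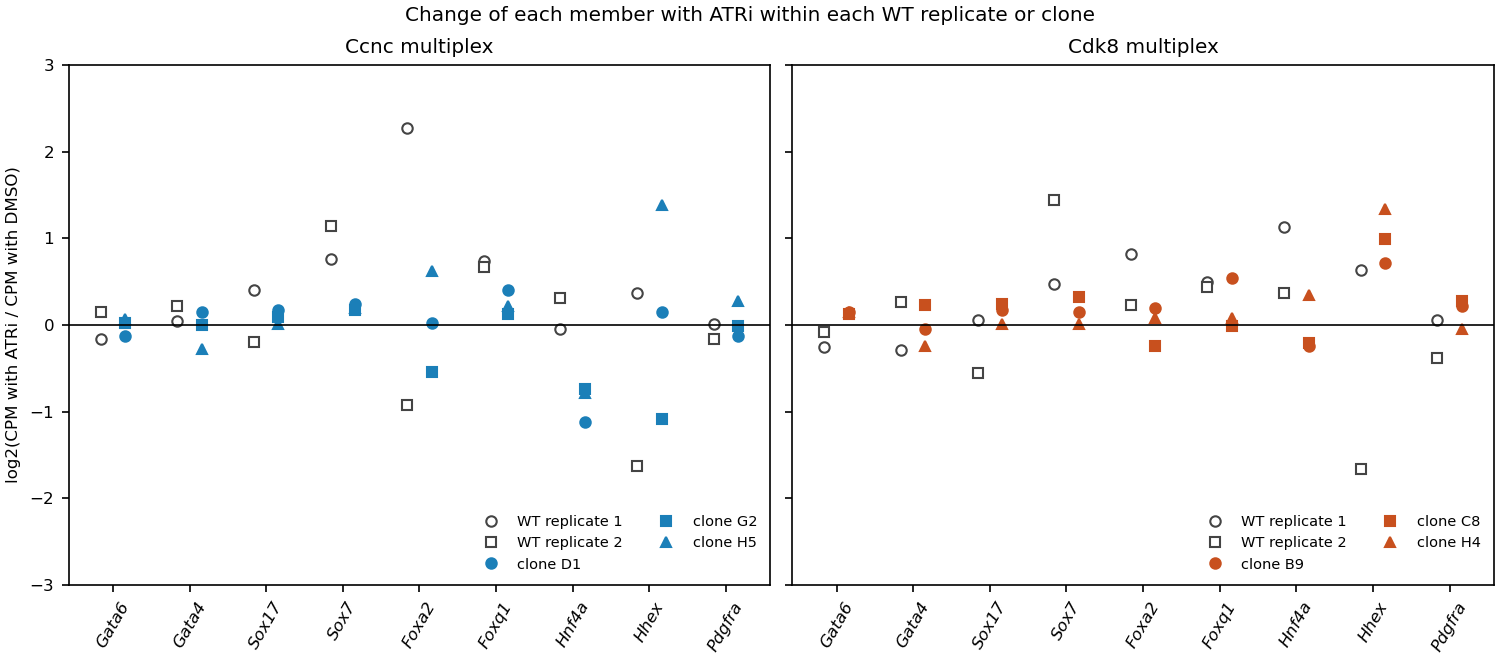
Log2 ratio of the level with ATRi to that with DMSO for each gene within each WT replicate (open) and knockout clone (filled), in the *Ccnc* multiplex (left) and the *Cdk8* multiplex (right). *Sox7* lies above 0 in all pairs, *Hnf4a* lies below 0 in the 3 *Ccnc* KO clones, and *Hhex*, with few reads, runs from below -1 to above 1 in both panels. The pairs of WT replicate 2 use its ATRi library, which was left out of the tests.

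The response to ATRi was then compared between genotypes. The interaction passed an adjusted p of 0.05 in edgeR for 0 of 9 members in either knockout, and for 0% of all genes, with 2.13% and 1.36% of genes but 0 members at an unadjusted p under 0.05, and DESeq2 called 0 as well. The interaction of *Hnf4a* was the largest in size, at -1.17 ± 0.60 (SE) for *Ccnc* KO and -1.13 ± 1.18 for *Cdk8* KO cells (edgeR adjusted p = 1.00 for each). For the other members it lay between -0.38 and 0.41 for *Ccnc* and between -0.43 and 0.90 for *Cdk8*. As 1 WT library with ATRi enters this test, that library is assumed to vary as the others do.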

How the data were processed

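RNA from WT and knockout mESCs was made into strand-specific poly(A) libraries and sequenced. Per the labels and methods, the authors trimmed reads with Trimmomatic (0.38), aligned them to GRCm38.p6 with HISAT2 (2.1.0) and counted them per gene with featureCounts (2.0.1), ignoring duplicates. The deposited values are raw counts per gene and lane. The 2 lanes of each library were summed here, and CPM are counts per 1000000 reads of the TMM-scaled library size. The authors' log2-scale transformed tables were not used. Counts were tested with edgeR (4.0.16) quasi-likelihood fits, TMM scaling and filterByExpr in R (4.3.3), with Benjamini-Hochberg adjustment over all genes tested. Libraries of a clone or WT replicate with DMSO and ATRi are the same line and so paired. The correlation of their deviations was 0.0338 to 0.802. The ATRi effect called 0 members with and without this replicate block. Alternatives used DESeq2 (1.42.0), limma (3.58.1), RLE scaling, no filter, summed clones, DMSO alone and leaving out each line. Named genes were the members, all tested paralogs, the highest and lowest gene of each list, and the 5 genes most like the members. Other list genes were named after their values were seen. The values of 1 list gene are not reported here. Members and lists were chosen with earlier results of these data known. Fits were tested on simulated counts drawn independently for each library. These leave out the likeness of the paired libraries of a clone and so do not bear on it.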

Additional observations from a re-analysis of the deposited data

Results flagged for a closer look

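For 8 members the *Cdk8* KO clones differed from each other in edgeR's F test of the clones, in a comparison in which 32.5% of all genes did. In the mean of its libraries, clone C8 exceeded clone H4 by 3.26-fold for *Hnf4a*, 2.00-fold for *Sox7*, 1.95-fold for *Pdgfra*, 1.94-fold for *Foxq1*, 1.84-fold for *Foxa2*, 1.69-fold for *Gata6*, 1.60-fold for *Gata4* and 1.34-fold for *Sox17*. Among the *Ccnc* KO clones *Sox17* was 2.26-fold higher in H5 than in D1, where 0.793% of all genes differed. A likelihood ratio test of the clones with DESeq2 called 6 members among the *Cdk8* KO and 0 among the *Ccnc* KO clones. It called 21.2% and 0.87% of all genes.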

How the results depend on the processing

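For *Ccnc* KO against WT, between 3 and 7 members were called when any 1 clone or WT replicate was left out, 3 of them without WT replicate 1. For *Cdk8* KO against WT the range was 0 to 8, with 0 without WT replicate 1 and 4 without clone C8, and the count was 4 with the replicate block in limma, 0 with DMSO alone and 0 with the libraries of each clone summed. Differences among *Ccnc* KO clones were called for 0 members by DESeq2 and 2 with no filter, beside 0.87% and 2.19% of all genes. Some alternatives turned the direction of an estimate. For *Foxa2* in *Ccnc* KO cells it ran from -0.080 without WT replicate 1 to 1.75 without WT replicate 2. For *Fbln2* it ran from -0.18 to 0.39 in *Ccnc* KO cells. In *Cdk8* KO cells *Fbln2* ran from -0.29 to 0.38, and was -0.059 with DMSO alone. *Nid1* in *Cdk8* KO cells ran from -0.28 to 0.015, the latter without H4. Between the knockouts the direction turned for *Foxq1* from -0.077 to 0.11 without G2, 0.11 without H4 and 0.49 with no multiplex term. Without C8 the *Foxq1* estimate kept its sign, at -0.40. *Sox7* turned from 0.14 to -0.066 without C8 and -0.015 without WT replicate 2, and reached up to 0.55. *Sox17* turned from 0.41 to -0.12 without WT replicate 1, and reached up to 0.82. *Hhex* turned from -0.30 to 0.15 with no multiplex term. The cause was not tested. ATRi and interaction counts stayed at 0 members under each alternative, the replicate block included, which raised the genes called for ATRi from 206 to 451 in the *Ccnc* and from 16 to 2107 in the *Cdk8* multiplex. Without WT replicate 1 a single WT library remains. Depth limits *Hnf4a*, *Foxa2* and *Hhex* most.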
